A study of Mus musculus with 6 samples.

Results

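The 40 genes described here are neighbours, on mouse chromosome 7, of the segment that is syntenic to human 16p11.2, 11 on its low-coordinate side and 29 on its high-coordinate side, of 45495 named lines of the count table. They were taken by symbol from a list of neighbours by position, and all 40 symbols were found. The cortex came from mice at postnatal week 8, as prefrontal homogenate, and was sequenced as ribosomal RNA-depleted total RNA in 3 libraries of wild type mice and 3 libraries of mice heterozygous for the 16p11.2 duplication. All mice were of a line first made on a C57BL/6N and 129Sv hybrid background and then backcrossed to C57BL/6 for 10 generations. The labels give neither the ends of the engineered segment nor whether the libraries came from separate animals, so p-values here speak of the spread among libraries, which may be technical.

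A duplication adds a copy of the genes inside it, and a gene whose RNA follows its copy number rises by 3 copies to 2, a log2 fold change of 0.585. Genes outside the ends keep their usual copies. RNA of the flanks is not a measure of copy number, so it does not by itself show where the extra copy stops. The flanks are also the place where sequence of the strain used for engineering can remain after backcrossing, which counts of genes cannot show. In people some of the low-coordinate neighbours lie in a separate stretch of 16p11.2. Its loss is linked to body weight through SH2B1, an adaptor of leptin and insulin signalling. The high-coordinate neighbours include SRCAP and SETD1A, chromatin regulators linked to developmental disorders and schizophrenia.

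The members that the results turn on are the pair next to the high-coordinate end, Cd2bp2 and Tbc1d10b, which were higher in the duplication libraries, and Srcap and Atxn2l, which had the lowest fold changes. The 250 bases before the start of each are shown from RefSeq on build GRCm38.p6, 5′ to 3′ on the gene's strand. Capitals mark matches on either strand to the TATA box (TATAAA), the CCAAT box, the GC box (GGGCGG), the E-box (CACGTG), the cAMP response element (TGACGTCA) or the ETS motif (CCGGAAG), or to the longer NRF1 and ZNF143 motifs.
Cd2bp2 (chr7:127196078-127196327, minus strand): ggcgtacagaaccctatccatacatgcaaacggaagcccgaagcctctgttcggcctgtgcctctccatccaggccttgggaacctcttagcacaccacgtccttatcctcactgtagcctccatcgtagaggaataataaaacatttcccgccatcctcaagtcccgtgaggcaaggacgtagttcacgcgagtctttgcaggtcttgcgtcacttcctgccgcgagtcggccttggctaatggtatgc
Tbc1d10b (chr7:127208469-127208718, minus strand): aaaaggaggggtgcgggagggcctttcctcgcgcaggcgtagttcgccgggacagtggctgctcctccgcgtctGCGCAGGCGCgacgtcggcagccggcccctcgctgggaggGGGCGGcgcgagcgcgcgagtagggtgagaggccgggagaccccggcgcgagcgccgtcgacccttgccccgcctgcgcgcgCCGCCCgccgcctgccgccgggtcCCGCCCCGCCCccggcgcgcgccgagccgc
Srcap (chr7:127511733-127511982, plus strand): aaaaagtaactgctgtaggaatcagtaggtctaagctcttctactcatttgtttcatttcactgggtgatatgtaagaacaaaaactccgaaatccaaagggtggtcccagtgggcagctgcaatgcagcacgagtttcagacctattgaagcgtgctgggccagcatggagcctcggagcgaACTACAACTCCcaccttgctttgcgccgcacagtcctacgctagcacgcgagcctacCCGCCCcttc
Atxn2l (chr7:126503438-126503687, minus strand): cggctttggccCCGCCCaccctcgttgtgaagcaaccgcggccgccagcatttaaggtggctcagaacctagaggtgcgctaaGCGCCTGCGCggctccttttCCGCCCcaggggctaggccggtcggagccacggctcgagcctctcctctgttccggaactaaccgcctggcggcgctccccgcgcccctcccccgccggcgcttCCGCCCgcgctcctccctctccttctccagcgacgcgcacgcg

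The pair that was higher did not have similar promoters. The window of Tbc1d10b was 80.4% G and C with 45 CpG sites, and that of Cd2bp2 was 54.8% with 15. The median of 32536 RefSeq promoter windows was 52.4% with 6, and that of 39 member windows was 56.0% with 11. The shares of all windows below thus come from a set with lower medians. The Cd2bp2 window held none of the motifs searched. Srcap held 1 ZNF143 match, a motif present in 0.94% of all windows and in 4 of the 39 members with a RefSeq window, the others being Fbxl19, Vkorc1 and Bckdk. Tbc1d10b and Atxn2l were the members with an NRF1 match, which 3.77% of all windows hold. CCAAT boxes were in 20 of 39 member windows and 33.81% of all windows, and GC boxes in 19 of 39 and 32.97%.

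Total counts ranged from 12988457 to 21872271 per library, of which 0.606% to 0.636% had no usable name. Names sit 3 lines above their counts in this stretch of the deposited table, and with that offset 38 of the 40 members had at least 30 counts over the wild type libraries, against 19 to 29 at the other offsets from 0 to 6. Neuronal markers (Slc17a7, Gad1, Snap25, Rbfox3 and Neurod6) summed to 3956 to 4220 CPM (counts scaled to a common library size) in wild type and 4076 to 4447 in duplication libraries (2 of 5 higher on average). The defining genes of cortex were thus present. In homogenate a change in the share of a cell type and a change in RNA per cell cannot be told apart. Markers of meningeal fibroblasts summed to 13.4 to 22.0 CPM in wild type and 18.7 to 38.6 in duplication libraries (5 of 5 higher on average), and those of oligodendrocytes to 1210 to 2116 and 1084 to 1462 (0 of 5 higher). Microglial markers summed to 205.5 to 234.2 and 234.4 to 241.9 CPM and astrocyte markers to 741.5 to 861.6 and 855.9 to 955.6 (5 of 5 higher on average in each list). Their part in the values below was not tested. Some libraries stood apart. Both libraries numbered 2 held RNA of both sexes, with 2130 counts of Xist and 177 of 4 Y-linked genes in wild type replicate 2 and 2090 and 182 in duplication replicate 2. Replicate 1 of each genotype held no Xist and at least 2515 Y-linked counts, and replicate 3 of each at least 2567 of Xist and at most 10 Y-linked. Results are therefore also given without both libraries numbered 2. Transcripts annotated as TEC (unspliced clusters of expressed tags) or sense intronic, 292 in all, had a mean log2 CPM, centred over the 6 libraries, of 0.47, 0 and 0.53 in wild type replicates 1 to 3. In duplication replicates 1 to 3 it was -0.44, -0.43 and -0.12.

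Of the 40 members 38 had enough counts to be tested. None passed in the edgeR quasi-likelihood test over all 15419 genes (Benjamini-Hochberg adjusted p from 0.162 to 0.984), where 0% of all genes passed. At an unadjusted p under 0.05 there were 3 higher and 5 lower members, 21.1% of those tested against 19.2% of all genes (7.05% higher and 12.2% lower). DESeq2 called 4 members, Cd2bp2 and Tbc1d10b as higher and Atxn2l and Setd1a as lower, 10.5% against 1.85% of all genes (0.298% higher and 1.55% lower). The libraries of the genotypes did not overlap for 7 of 38 members, 18.4% against 22.1% of all genes, with 3 higher (11.7% of all genes) and 4 lower (10.5%). The median log2 fold change, duplication over wild type, was -0.0080 for the low-coordinate side and -0.0060 for the high-coordinate side, beside 0.0050 over all genes. The 23 tested genes of the interval, from Slx1b to Spn, had a median of 0.75. In the same edgeR fit 0 of these 23 passed, and DESeq2 called 17 of them (73.9%), all as higher.

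The edgeR calls among members depended on the libraries and filter used. Without a filter on low counts 2 members were called higher, Cd2bp2 and Tbc1d10b, and 3 lower, Atxn2l, Srcap and Setd1a, where 3.84% of all genes were called (0.654% higher and 3.19% lower). Without wild type replicate 2 the counts were 3 and 6, where 15.3% of all genes were called (4.62% and 10.7%). Without both libraries numbered 2 they were 2 and 5, where 8.49% were called (1.48% and 7.02%). In a model with a replicate block Cd2bp2 was the 1 member called, where 0.0454% of all genes were called (0.0389% higher and 0.00649% lower). Leaving out any other single library called no member.

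**Figure D1:**
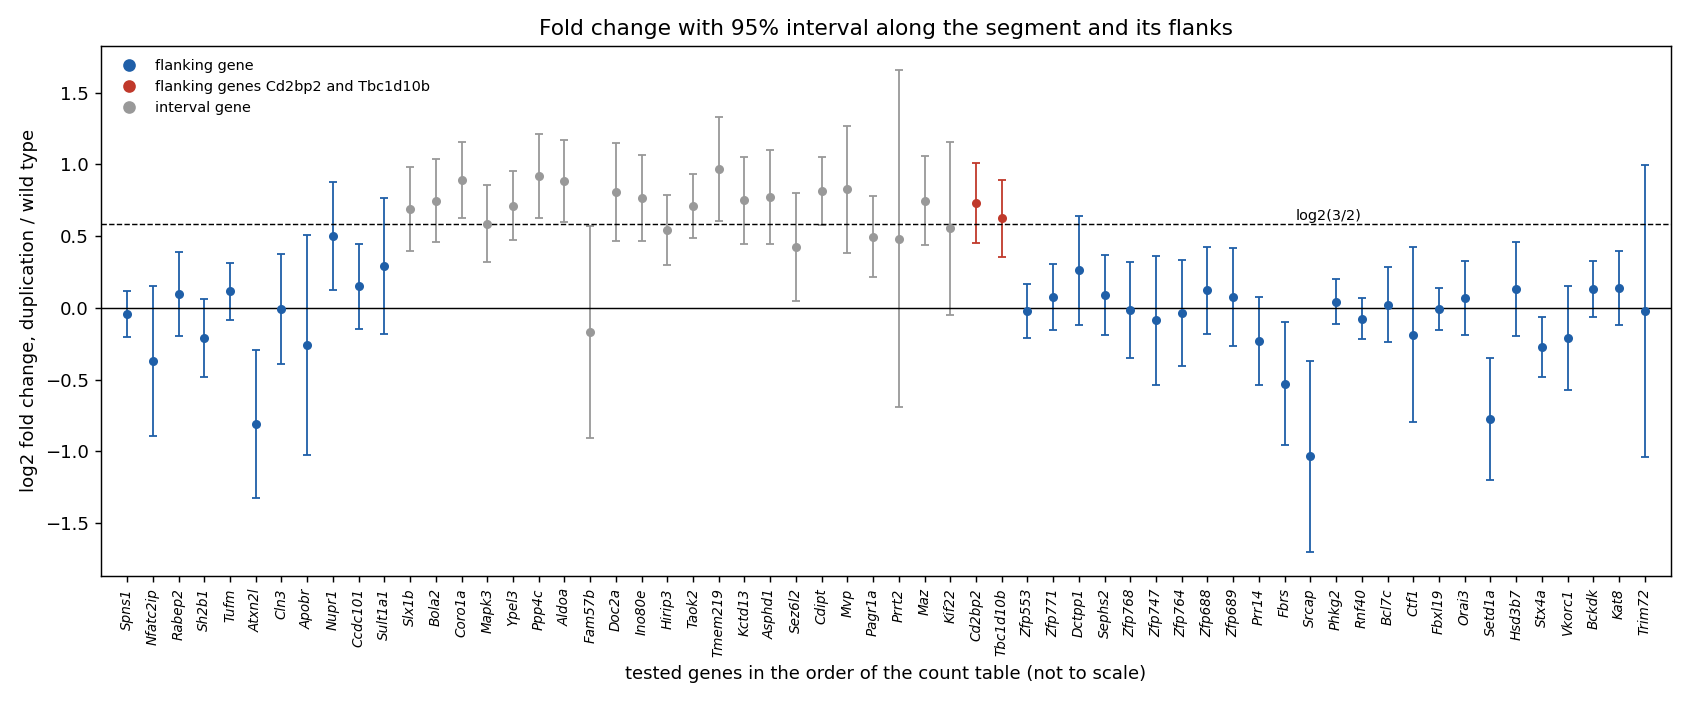
Log2 fold change of duplication over wild type (y axis) for each tested gene in the order of the count table (x axis, not to scale), with its 95% interval from edgeR. Flanking genes are blue, Cd2bp2 and Tbc1d10b red and interval genes grey; the interval gene Gdpd3, at 3.53, is left off, and the dashed line is at 0.585. The red pair lies at the level of the interval genes and Zfp553, the next tested gene outward, at -0.021.

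Cd2bp2 and Tbc1d10b were higher in every duplication library than in every wild type library, as were 11.7% of all genes tested. Copy number was not measured, so whether they lie inside the engineered segment was not tested. Cd2bp2 encodes a protein of the spliceosomal U5 particle that also binds CD2, a surface protein of T cells. It lies on mm10 chromosome 7 from 127191660 to 127196050, 53.8 kb beyond the end of Spn. Its level was 71.4, 86.2 and 76.5 CPM in wild type replicates 1 to 3 and 115, 156 and 118 CPM in duplication replicates 1 to 3. The lowest duplication library was thus above the highest wild type library, and replicate 2 was the highest of its group in both genotypes. The means were 78.0 ± 7.51 and 129.5 ± 23 CPM (SD, n = 3 per group), a log2 fold change of 0.73 ± 0.12 (SE; 95% interval 0.45 to 1.01). It did not pass in edgeR (adjusted p = 0.162) and passed in DESeq2 (adjusted p = 3.56e-05).

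Tbc1d10b encodes a GTPase-activating protein for Rab proteins, the switches of vesicle traffic, and lies next to Cd2bp2 from 127197459 to 127208468. Its level was 66.1, 64.4 and 64.0 CPM in wild type and 87.9, 121.8 and 90.3 CPM in duplication replicates 1 to 3. The wild type libraries lay close together, and all duplication libraries lay above them. The means were 64.8 ± 1.09 and 100 ± 18.9 CPM (SD, n = 3 per group), a log2 fold change of 0.62 ± 0.12 (SE; 0.36 to 0.89), with an adjusted p of 0.162 in edgeR and 0.000689 in DESeq2. Neither gene shares exon bases with another gene of the annotation used here. The sources used here do not give the strand setting of the counting, and its part in the values of the pair was not tested. Without both libraries numbered 2 the log2 fold changes were 0.66 and 0.46. Both genes passed in edgeR (adjusted p of 0.00977 and 0.0118), where 8.49% of all genes passed, 1.48% as higher. With the covariate of TEC and sense intronic transcripts the log2 fold changes were 0.42 and 0.51. Neither gene passed, as no gene did in that fit (edgeR adjusted p = 0.999 for each, the highest over the alternatives). Over all settings run, Cd2bp2 lay between 0.42 and 0.81 and Tbc1d10b between 0.46 and 0.71.

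Among the duplication libraries, the pair had the same highest replicate as most interval genes. Cd2bp2 stood at 1.47, 2.0 and 1.51 times the wild type mean in duplication replicates 1 to 3 and Tbc1d10b at 1.36, 1.88 and 1.39 times. The median log2 ratio of the 23 interval genes was 0.59, 1.02 and 0.61 in the same libraries. Without duplication replicate 2 the log2 fold changes were 0.58 for Cd2bp2 and 0.46 for Tbc1d10b, against 0.73 and 0.62 with all libraries. Neither gene passed in that fit (edgeR adjusted p of 0.279 and 0.273). Replicate 2 was the highest duplication library for 22 of 23 interval genes and for both genes of the pair, and for 8 of the other 36 tested members. This order was not counted over all genes, and the pair is only 2 genes. The other 36 members had a median log2 ratio of -0.050 in replicate 2, against 0.096 in replicate 1 and -0.019 in replicate 3. Zfp553, the next tested gene outward, stood at 0.96 times the wild type mean in that replicate.

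**Figure D2:**
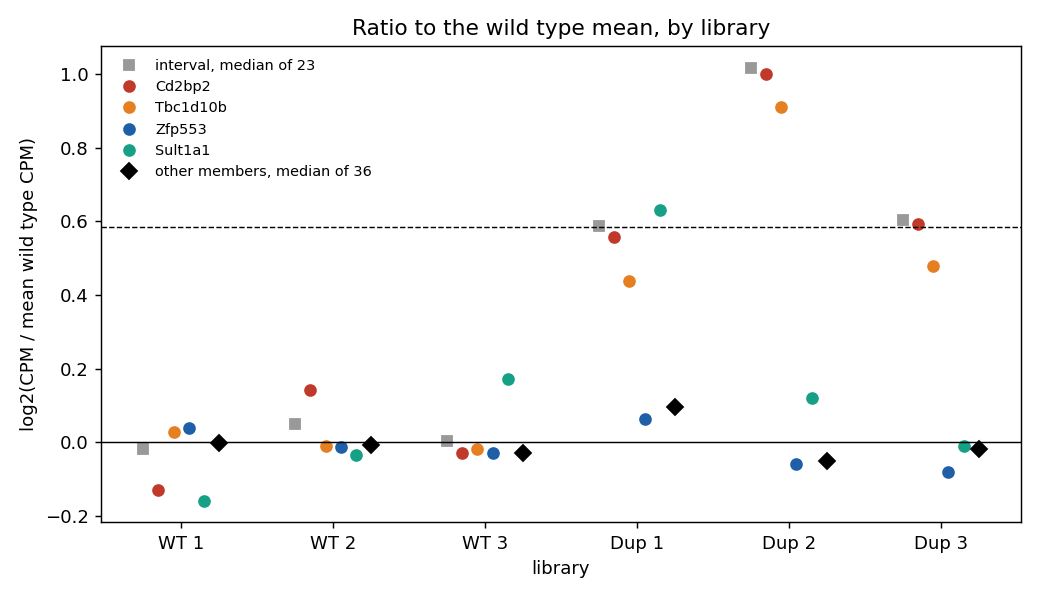
Log2 ratio of CPM to the wild type mean (y axis) in each of the 6 libraries (x axis) for the median of 23 interval genes, for Cd2bp2, Tbc1d10b, Zfp553 and Sult1a1, and for the median of the other 36 tested members. The dashed line is at 0.585; in duplication replicate 2 the interval median is at 1.02, with Cd2bp2 beside it and Tbc1d10b at 0.91, and Zfp553 is at -0.059.

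Beyond Tbc1d10b lie Mylpf, Sept1 and then Zfp553. Mylpf, the regulatory light chain of fast skeletal muscle myosin, had 2, 4 and 1 counts in wild type and 16, 13 and 6 counts in duplication replicates 1 to 3. All duplication libraries were above all wild type libraries, and too few counts kept it out of the test. The mean levels were 0.169 ± 0.103 and 0.660 ± 0.256 CPM (SD, n = 3 per group). With no filter on low counts its log2 fold change was 1.91 ± 0.57 (SE; edgeR adjusted p = 0.0584). It entered the test in 4 of the fits that left out a single library. It passed without wild type replicate 2 (2.46, edgeR adjusted p = 0.0428), where 15.3% of all genes passed, and did not without wild type replicate 1 (adjusted p = 0.367), wild type replicate 3 (0.457) or duplication replicate 3 (0.247). All 5 skeletal muscle markers were looked at beside it: they summed to 7.55 to 8.68 CPM in wild type and 8.91 to 10.4 in duplication libraries, mostly Acta1, with 2 of the 5 higher on average in the duplication group and Ckm at 0 throughout. Their part in the value of Mylpf was not tested. Sept1, a septin whose name the table holds as a date number, had 6 counts in wild type and 10 in duplication libraries, too few for a comparison.

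Zfp553, a zinc finger gene that starts at 127233061, was at the same level in both genotypes within a narrow spread. Its level was 17.8, 17.2 and 17.0 CPM in wild type and 18.1, 16.6 and 16.4 CPM in duplication replicates 1 to 3. The groups overlap, and the log2 fold change was -0.021 ± 0.083 (SE), with a 95% interval of -0.21 to 0.17 that lies below 0.585. The interval of Tbc1d10b lies above 0. A stretch of 24.6 kb, holding Mylpf and Sept1, separates the end of Tbc1d10b from the start of Zfp553. Read with the names as deposited, the line of Zfp553 carries the counts of Tbc1d10b and a log2 fold change of 0.62.

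On the low-coordinate side the values did not show a clear edge. Sult1a1, a sulfotransferase of phenols and drugs, ends 13 kb before the start of Slx1b, the first interval gene. Its level was 2.61, 2.84 and 3.28 CPM in wild type and 4.50, 3.16 and 2.89 CPM in duplication replicates 1 to 3. The only duplication library above all wild type libraries was replicate 1. The log2 fold change was 0.29 ± 0.21 (SE; edgeR adjusted p = 0.460), and its interval of -0.18 to 0.77 holds both 0 and 0.585. It was 0.055 without duplication replicate 1. Slx1b itself, a subunit of a DNA repair nuclease, was at 0.69 ± 0.13 (0.39 to 0.98).

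Ccdc101, now named Sgf29, a reader of histone methylation in the SAGA complex, lies from 126649309 to 126672925 and shares 61 exon bases with Sult1a1 on the opposite strand. Its level was 7.67, 6.65 and 8.60 CPM in wild type and 9.32, 8.01 and 7.97 CPM in duplication replicates 1 to 3. The groups overlap, the log2 fold change was 0.15 ± 0.13 (SE; edgeR adjusted p = 0.549), and the interval of -0.15 to 0.45 lies below 0.585. Nupr1, a small stress-induced chromatin protein, lies farther out, from 126623249 to 126630861. Its level was 3.003, 3.53 and 2.99 CPM in wild type and 4.55, 3.77 and 5.15 CPM in duplication replicates 1 to 3. The groups do not overlap, though the nearest libraries, both numbered 2, differ by little beside the spread of the others. The log2 fold change was 0.50 ± 0.17 (SE; 0.12 to 0.88) and did not pass (edgeR adjusted p = 0.182, from 0.0735 to 0.999 over the alternatives; DESeq2 adjusted p = 0.350). Unlike the pair on the other side, Nupr1 was lowest in duplication replicate 2.

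Apobr, a receptor by which macrophages take up lipoprotein, was near the detection limit, with 34 counts in wild type and 37 in duplication libraries. Its level was 0.790, 0.970 and 0.729 CPM in wild type and 0.910, 0.673 and 0.439 CPM in duplication replicates 1 to 3. The groups overlap and the log2 fold change was -0.26 ± 0.34 (SE; edgeR adjusted p = 0.699). Its exons overlap those of Cln3 and Il27 on the opposite strand by 545 bases.

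**Figure D3:**
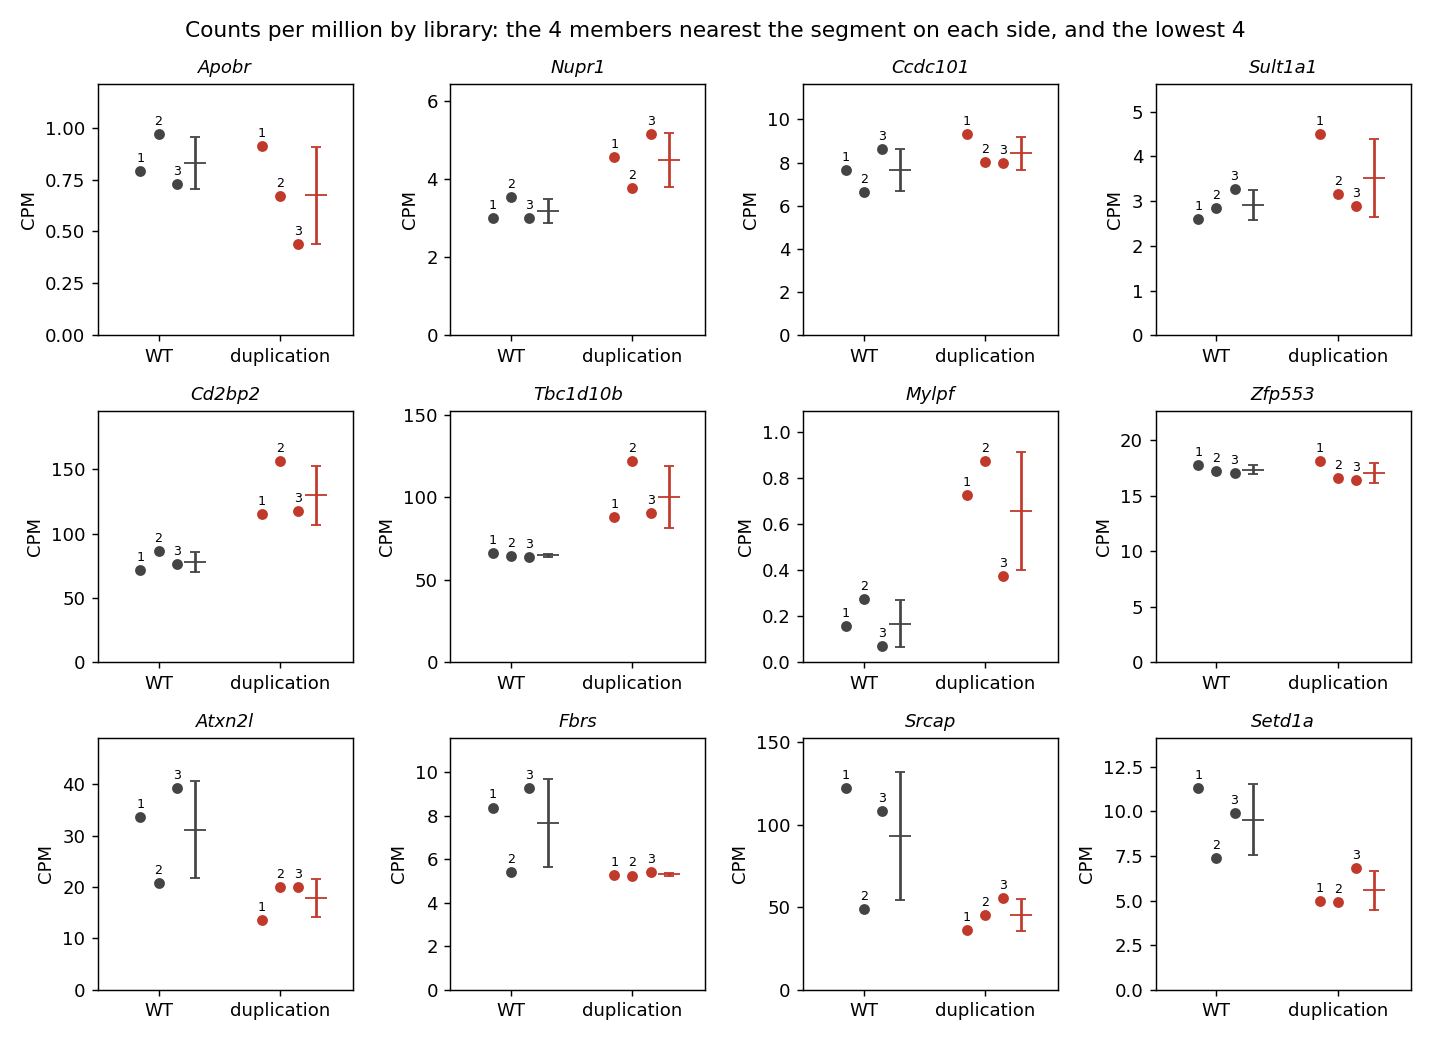
CPM of each library (y axis, from 0) by genotype (x axis) for the 4 members nearest the segment on each side and the 4 members with the lowest fold change, with replicate numbers above the points and the mean ± SD beside them. Cd2bp2 and Tbc1d10b are higher in all 3 duplication libraries, Zfp553 is level, and wild type replicate 2 lies near the duplication libraries in Atxn2l, Fbrs and Srcap.

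Across the tested flanks, 32 of 38 intervals lay below 0.585, against 87.5% of all genes tested, and 30 held 0, against 80.7%. The 6 intervals that held 0.585 were those of Cd2bp2, Tbc1d10b, Nupr1, Sult1a1, Dctpp1 and Trim72, and of these the last 3 also held 0. The outermost members lie 312.0 kb from the interval on the low-coordinate side and 866.1 kb from it on the high-coordinate side. The median standard error of the tested members was 0.135, against 0.110 over all genes.

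The zinc finger genes next to the high-coordinate end had log2 fold changes near 0. Such genes encode DNA-binding proteins, many of them repressors of transcription. All 7 were tested, 0 of 7 had an unadjusted p under 0.05 in edgeR (19.2% of all genes), DESeq2 called 0 of 7 (1.85% of all genes), counts too small to set apart from those shares, and 7 of 7 intervals held 0 and lay below 0.585. Their log2 fold changes ran from -0.088 for Zfp747 to 0.12 for Zfp688, with a median of -0.016. Zfp771 was at 20.7 ± 2.68 CPM in wild type and 21.9 ± 0.858 in duplication libraries (SD, n = 3 per group). Zfp768, Zfp764 and Zfp689 were at -0.016 ± 0.147, -0.036 ± 0.163 and 0.077 ± 0.151 (log2 fold change ± SE).

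Of the 4 members with the lowest fold changes 3 were among the 9 regulators of chromatin, Srcap, Setd1a and Fbrs, and the other was Atxn2l. Srcap, the ATPase that places the histone variant H2A.Z, was at 122.2, 49.2 and 108 CPM in wild type and 36.1, 45.0 and 55.4 CPM in duplication replicates 1 to 3. Wild type replicate 2 lies among the duplication libraries, so the groups overlap. The log2 fold change was -1.04 ± 0.29 (SE; -1.70 to -0.37), with an adjusted p of 0.174 in edgeR and 0.188 in DESeq2. Its exons share 9738 bases with the predicted gene Gm42715 on the same strand, which no strand setting separates.

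Setd1a, a histone H3 lysine 4 methyltransferase, was at 11.3, 7.41 and 9.92 CPM in wild type and 4.96, 4.91 and 6.84 CPM in duplication replicates 1 to 3. All duplication libraries were lower than all wild type libraries. The log2 fold change was -0.78 ± 0.19 (SE; -1.20 to -0.35), with an adjusted p of 0.174 in edgeR and 0.0291 in DESeq2. Its exons share 3523 bases with the read-through gene Gm49388 on the same strand. Fbrs, a Polycomb-associated protein also named fibrosin, was at 8.38, 5.402 and 9.26 CPM in wild type and 5.28, 5.25 and 5.397 CPM in duplication replicates 1 to 3. Wild type replicate 2 lies just above the highest duplication library, so the groups barely part. The log2 fold change was -0.53 ± 0.19 (SE; edgeR adjusted p = 0.196, DESeq2 0.210).

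The other 6 genes of this group had intervals that held 0. Kat8, a histone H4 acetyltransferase, was at 0.14 ± 0.11, Rnf40, a ubiquitin ligase for histone H2B, at -0.076 ± 0.064, and Bcl7c, a subunit of the BAF remodeller, at 0.023 ± 0.116 (log2 fold change ± SE). Fbxl19, an F-box protein that binds CpG islands, was at 58.8 ± 3.09 CPM in wild type and 58.6 ± 1.88 in duplication libraries (SD, n = 3 per group), and its interval of -0.15 to 0.14 was among the narrowest. Prr14, a tether of heterochromatin to the nuclear lamina, was at -0.23 ± 0.14. Of the 9 genes 3 were lower and 0 higher at an unadjusted p under 0.05 in edgeR, 33.3% against 19.2% of all genes.

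Atxn2l, a stress granule protein related to ataxin 2, was the lowest member of the low-coordinate side. Its level was 33.7, 20.7 and 39.2 CPM in wild type and 13.6, 19.9 and 20.1 CPM in duplication replicates 1 to 3. The groups do not overlap, but wild type replicate 2 lies close above the highest duplication library. The log2 fold change was -0.81 ± 0.23 (SE; -1.33 to -0.29), with an adjusted p of 0.174 in edgeR and 0.0165 in DESeq2. It shares no exon bases with another gene.

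Transcripts of the TEC and sense intronic classes moved with the low values. Wild type replicate 2, the lowest wild type library of Srcap, Setd1a, Fbrs and Atxn2l, was also the wild type library with the lowest such level (0 against 0.47 and 0.53). With it as a covariate in edgeR, the log2 fold changes of Srcap, Fbrs, Atxn2l and Setd1a were 0.47, 0.20, 0.20 and -0.021. None of the 15419 genes passed in that fit, as in the fit without the covariate. Without wild type replicate 2 all 4 passed in edgeR, along with Sh2b1 and Stx4a. The values were -1.35 for Srcap, -1.04 for Atxn2l, -0.94 for Setd1a and -0.73 for Fbrs. In that fit 15.3% of all genes passed, 10.7% as lower. Without both libraries numbered 2 the same 4 and Sh2b1 passed, where 8.49% of all genes did, 7.02% as lower. The level and the genotype cannot be told apart beyond these fits, and its part in the values was not tested otherwise.

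**Figure D4:**
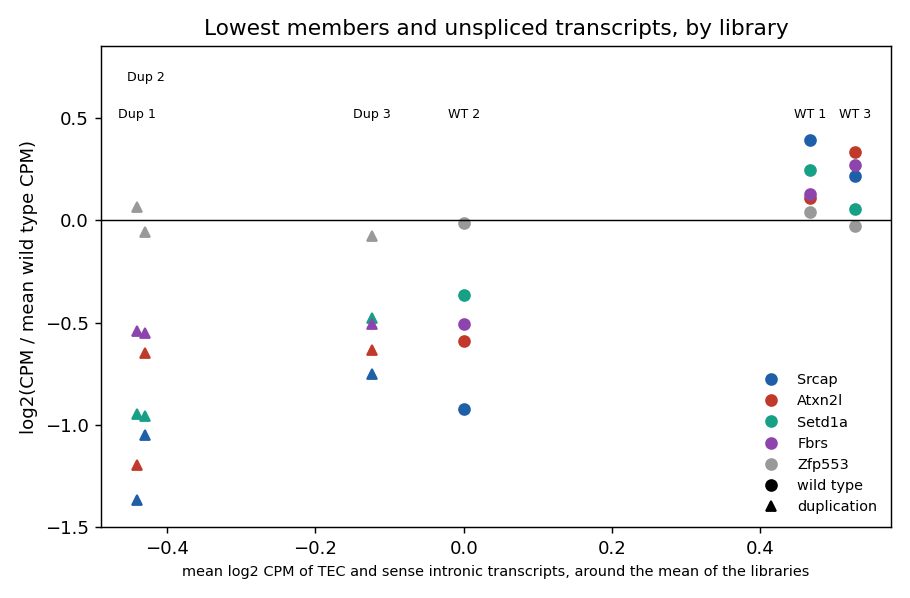
Log2 ratio of CPM to the wild type mean (y axis) of Srcap, Atxn2l, Setd1a, Fbrs and, for comparison, Zfp553, against the mean log2 CPM of TEC and sense intronic transcripts, centred over the libraries (x axis). Circles are wild type and triangles duplication libraries; wild type replicate 2, at 0 on the x axis, lies at -0.92 for Srcap, near the duplication libraries, and Zfp553 stays between -0.080 and 0.064.

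Genes of metabolism and mitochondria had a median log2 fold change of 0.12. Of 8 tested members 0 had an unadjusted p under 0.05 in edgeR, where 19.2% of all genes did, and DESeq2 called 0, where it called 1.85% of all genes. All 8 intervals held 0, and those of Sult1a1 and Dctpp1 held 0.585 as well. Tufm, the elongation factor of mitochondrial translation, was at 38.6 ± 3.86 CPM in wild type and 41.8 ± 2.59 in duplication libraries (SD, n = 3 per group). Bckdk, the kinase that restrains branched-chain amino acid breakdown, was at 0.13 ± 0.09, and Phkg2, the catalytic subunit of liver and testis phosphorylase kinase, at 0.042 ± 0.069 (log2 fold change ± SE). Dctpp1, which clears modified dCTP, was at 0.26 ± 0.17, Sephs2, a selenophosphate synthetase, at 0.087 ± 0.124, Hsd3b7, a bile acid synthesis enzyme, at 0.13 ± 0.15, and Vkorc1, the target of warfarin, at -0.21 ± 0.16. Hsd3b7 and Vkorc1 share exon bases on the same strand with Gm49388 and Gm21974.

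Among genes of membrane traffic and the lysosome, Tbc1d10b stood apart from the others. Stx4a, a plasma membrane syntaxin of exocytosis, was at 17.9, 16.3 and 19.3 CPM in wild type and 14.5, 15.1 and 14.8 CPM in duplication replicates 1 to 3. Its groups do not overlap, and the log2 fold change of -0.27 ± 0.09 (SE) did not pass (edgeR adjusted p = 0.184, DESeq2 0.326). Cln3, the lysosomal protein lost in juvenile Batten disease, was at -0.0080 ± 0.170 and Spns1, a lysosomal lysophospholipid transporter, at -0.041 ± 0.071. Rabep2, an effector of Rab proteins on endosomes, was at 0.098 ± 0.130 and Orai3, a store-operated calcium channel, at 0.068 ± 0.115.

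Of the 4 tested signalling and immune genes 0 had an unadjusted p under 0.05 in edgeR, where 19.2% of all genes did. Their log2 fold changes ran from -0.37 to -0.19. Sh2b1 was at 35.8, 26.7 and 36.02 CPM in wild type and 26.1, 30.4 and 28.7 CPM in duplication replicates 1 to 3. The groups overlap through wild type replicate 2, and the log2 fold change was -0.21 ± 0.12 (SE; edgeR adjusted p = 0.361). It passed in edgeR without wild type replicate 2, at -0.34 (adjusted p = 0.0245), where 15.3% of all genes passed. Nfatc2ip, a SUMO-like partner of the transcription factor NFAT, was at 3.003, 2.36 and 3.50 CPM in wild type and 2.14, 1.82 and 2.89 CPM in duplication replicates 1 to 3, with groups that overlap and a log2 fold change of -0.37 ± 0.23 (SE; edgeR adjusted p = 0.398).

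The remaining members had few counts. Ctf1, the cytokine cardiotrophin, was at -0.19 ± 0.27 from 38 counts in wild type and 43 in duplication libraries. Trim72, a membrane repair protein of muscle, was at -0.021 ± 0.451 with 40 and 50 counts, an interval of -1.04 to 0.998 that holds a change of 3 to 2 in either direction. Itgal, the integrin LFA-1 chain of leukocytes, had 13 and 24 counts and was not tested. Lymphocyte markers were at or near 0, with Cd3e, Cd3g and Cd2 at 0 in all libraries but wild type replicate 1, and the list, carried by Ptprc, summed to 4.78 to 5.76 CPM in wild type and 4.55 to 5.21 in duplication libraries.

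Levels between members were compared per kilobase of exon. In wild type libraries Cd2bp2 (19.5 CPM per kb), Tufm (18.1), Tbc1d10b (13.8), Fbxl19 (13) and Sephs2 (12.4) were the highest and Itgal (0.0482), Mylpf (0.159) and Apobr (0.220) the lowest. The higher pair is thus among the most abundant RNAs of the flanks. Of the 40 members, 6 share exon bases with another gene on the same strand and 19 with another on the opposite strand. For the latter, whether reads in the shared bases are told apart depends on the strand setting.

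Other genes of the neighbourhood, from a list that reaches past the members on both sides, were in the range of the flanks. Of 32 listed, 24 were tested, 1 was higher and 5 were lower at an unadjusted p under 0.05 in edgeR (25% against 19.2% of all genes). Cpxm2, a carboxypeptidase-like protein, was at 0.40 ± 0.16 and Gtf3c1, a subunit of the RNA polymerase III factor TFIIIC, at -0.34 ± 0.10 (log2 fold change ± SE; edgeR adjusted p of 0.220 and 0.174). Eif3c, a translation initiation factor between Atxn2l and Cln3, was at 0.058 ± 0.057. On the other side of Atxn2l, Tufm was at 0.12 and Sh2b1, past Tufm, at -0.21 ± 0.12.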

How the data were processed

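RNA was extracted with Trizol and made into stranded total RNA libraries, per the labels' protocols. Per the submitters' processing notes, cutadapt, TopHat2, HTSeq and build mm10 were used; tool versions, annotation and strand setting are not named there. The deposited values are raw read counts of each gene, not normalized by the authors. With 45807 lines of counts against 45801 names, names slip by 0 to 6 lines; they were moved by a set rule (3 lines here, 1020 lines from the nearest break) and those within 25 lines of a break were left out. Groups came from titles. The members and lists were chosen with earlier results of these data known. edgeR 4.0.16 in R 4.3.3 (TMM factors, filterByExpr, quasi-likelihood test, all 6 libraries, adjusted p under 0.05) was fitted over all genes and checked on simulated data. DESeq2 1.42.0 and limma-voom (limma 3.58.1) were alternatives, as were other factors, filters, covariates, a replicate block, left-out libraries and names as deposited. CPM uses TMM-scaled sizes. Positions, classes and exon lengths are from GENCODE M21 on the same build. Per-library values are given for the 4 members nearest the segment on each side, DESeq2 calls, the 8 largest fold changes and the 3 highest levels, and also for Stx4a and Sh2b1, chosen after their values were seen. No molecular identifiers are named, so the counts do not tell copies made in amplification from separate molecules.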

Additional observations from a re-analysis of the deposited data

How the results depend on the processing

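In edgeR 0 members were called higher and 0 lower. The counts higher and lower were 2 and 2 with DESeq2 (1.85% of all genes called) and 2 and 3 without a filter (3.84%). They were 1 and 0 with the replicate block (0.0454%). Without both libraries numbered 2, an alternative chosen after seeing the data, they were 2 and 5 (8.49%). Leaving out 1 library gave 0 to 3 higher and 0 to 6 lower. Calls came only without wild type replicate 2, where 15.3% of all genes were called. The replicate block called Cd2bp2 (0.72, adjusted p = 0.0433) and changed no other call; deviations of same-numbered libraries correlated at 0.102, 0.063 and 0.311, and not every library correlated best with its own number. The medians kept within the spread between libraries, save that of the low-coordinate members with the TEC and sense intronic level as covariate, at 0.22. No member called by any alternative turned its sign except Srcap, Atxn2l, Fbrs and Sh2b1 with that covariate, which left 3 residual degrees of freedom, and Fbrs with names as deposited; the cause was not tested.

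Log2 values whose sign differed from the edgeR value were none of them past the threshold. With the covariate they were 0.23 for Cln3, 0.22 for Sh2b1, -0.018 for Tufm, 0.20 for Atxn2l, 0.094 for Spns1, 0.42 for Nfatc2ip, -0.15 for Zfp771, -0.26 for Dctpp1, -0.28 for Sephs2, 0.014 for Zfp764, -0.073 for Zfp688, -0.005 for Zfp689, 0.10 for Prr14, 0.20 for Fbrs, 0.47 for Srcap, 0.018 for Rnf40, -0.12 for Bcl7c, -0.037 for Hsd3b7 and -0.046 for Kat8. With upper-quartile factors they were 0.018 for Cln3, 0.005 for Zfp553, 0.010 for Zfp768, 0.019 for Fbxl19 and 0.004 for Trim72, with library size only 0.007 for Cln3 and 0.008 for Fbxl19, and without a filter 0.002 and 0.004. Cln3 was at 0.011 with limma-voom and Trim72 at 0.014 with DESeq2. Without both libraries numbered 2, Cln3 was at 0.021, Zfp768 at 0.15, Zfp764 at 0.013 and Fbxl19 at 0.023. With names as deposited, where other genes' counts are read, Rabep2 was at -0.041, Zfp553 at 0.62, Sephs2 at -0.021, Zfp768 at 0.087, Zfp688 at -0.090, Prr14 at 0.12, Fbrs at 0.077, Phkg2 at -0.90, Bcl7c at -0.076, Orai3 at -0.19 and Hsd3b7 at -0.006. Leaving out 1 library gave -0.12 to 0.18 for Cln3, -0.067 to 0.007 for Zfp553, -0.003 to 0.18 for Zfp771, -0.022 to 0.21 for Sephs2, -0.17 to 0.089 for Zfp768, -0.30 to 0.034 for Zfp747, -0.13 to 0.096 for Zfp764, -0.092 to 0.11 for Bcl7c, -0.037 to 0.034 for Fbxl19, -0.012 to 0.15 for Orai3 and -0.33 to 0.37 for Trim72. Few counts limit Apobr, Ctf1, Trim72, Mylpf and Itgal.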
